A study of Arabidopsis thaliana with 9 samples.

Results

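Whole seedlings of Arabidopsis thaliana were compared after 72 h and after 48 h of exposure to silver nitrate, to describe how the transcriptome drifted over the last day of the treatment. The comparison used the 3 arrays labelled 72 h and the 3 labelled 48 h, 6 of the 9 arrays of the study, and every gene locus with a measurable probe (21042 genes). All plants were of accession Col-0, carried no transgene or mutation named in the labels, grew in shaken liquid medium under continuous light and were about 3 weeks old. Silver nitrate was added to the medium to 0.1 mM at 72 h or at 48 h before harvest, and plants of the 0 h group were harvested without it. Each time was sampled in 3 separate experiments with different plants. No plants kept for 48 h or 72 h without silver are described, so a further day of silver and a further day in the same culture cannot be told apart.

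Silver ions are toxic to plants. They displace copper from the ethylene receptors, which blinds plants to that hormone, and they bind to thiol groups of proteins and of glutathione. Growing organs depend on auxin, which induces small SAUR proteins that keep the plasma membrane proton pump active, and on wall proteins such as expansins and xyloglucan-modifying enzymes that let cells stretch. Roots in addition make specialised triterpenes from small gene clusters and carry high-affinity transporters for ammonium, nitrate and phosphate.

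RNA was labelled with 1 dye and hybridised to Agilent arrays, whose number limits the precision. Between 65.4% and 68.3% of probes were well above background on an array. Levels below are log2 values relative to the array's own 75th percentile, so a level of 0 equals that percentile, and differences are log2 of 72 h minus 48 h. Levels of different genes cannot be compared with each other, because each probe binds with its own strength. Replicates 1 and 2 of both times lay on shared slides, scanned on the same day, whereas replicate 3 of 72 h lay on a slide of its own, apart from replicate 3 of 48 h in slide and in scan day. The array of 72 h replicate 1 stood farthest from the others. Gene differences and most list medians without it are given below where they moved by more than 1.5 times. The medians of the phenylpropanoid, sugar transport, Aux/IAA, copper, nitrogen, root tissue, clock and reference lists also moved by more than that without it. Among these, the copper median became -0.081, the nitrogen median -0.091 and the reference gene median -0.11.

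The drift between 48 h and 72 h was of a size similar to the spread between replicates. The SD over genes of the difference between a 72 h array and a 48 h array was 0.455 to 0.678 on the log2 scale over the 9 pairs (median 0.561), against 0.383 to 0.549 between 72 h arrays and 0.442 to 0.505 between 48 h arrays. The 3 pairs with 72 h replicate 1 gave the highest values (0.675 to 0.678). The lowest value between times, 0.455 for the replicate 2 arrays, was inside the range between 48 h arrays. Arrays of different times correlated at 0.971 to 0.987 over genes, which are not independent replicates.

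**Figure D1:**
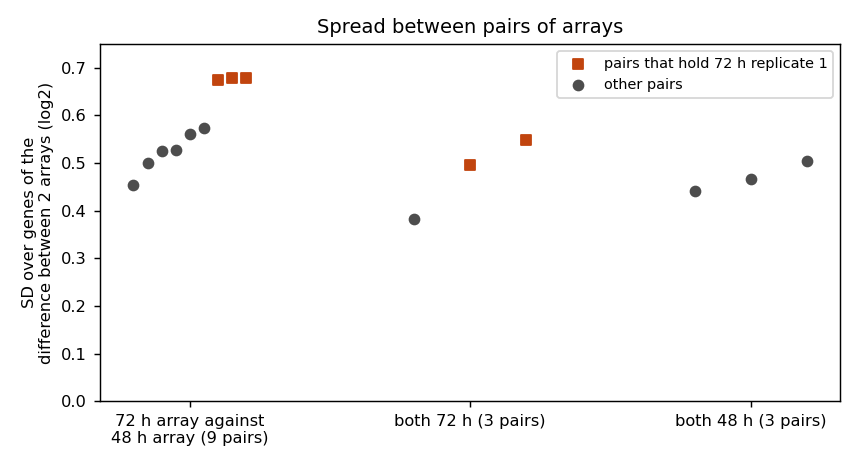
Spread between pairs of arrays: each point is the SD over 21042 genes of the log2 difference between 2 arrays, for 72 h against 48 h arrays, 2 arrays of 72 h and 2 arrays of 48 h. Squares mark pairs with 72 h replicate 1: those between times lie from 0.675 to 0.678, and the other 6 pairs between times from 0.455 to 0.574.

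No gene passed an adjusted p of 0.05 (0 of 21042 genes, 0%, by limma with Benjamini-Hochberg adjustment). The smallest adjusted p was 0.0514. At an unadjusted p of 0.05, 1931 genes (9.18%) passed, 729 (3.46%) with a higher mean at 72 h and 1202 (5.71%) with a lower one. Against 0 h, the same fit called 7630 genes (36.3%) at 72 h and 6308 genes (30%) at 48 h. Fits with other scalings, arrays or variance models called between 0 and 7 genes.

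Since no gene was called, the direction of the drift is described by genes whose 3 values at 72 h all lay above, or all below, the 3 values at 48 h. Among all genes tested, 1699 (8.07%) were higher and 2001 (9.51%) lower without overlap. Counts of list members below are to be read against these shares. Requiring also a mean difference of at least 2-fold left 198 higher genes (0.941%) and 417 lower genes (1.98%). Means alone were 2-fold apart or more in 842 genes (4%), 261 higher (1.24%) and 581 lower (2.76%). All of these counts are descriptions and not tests. Higher genes were 32.2% of the genes 2-fold apart, but the split depended on the scaling: 255 were higher and 329 lower with median scaling, 247 and 338 with quantile normalization, and 256 and 335 in the authors' value table. Without 72 h replicate 2 there were 654 lower genes, and without 48 h replicate 3 there were 339 higher genes. Without 72 h replicate 1 the counts were 198 higher and 409 lower. With an array left out fewer values have to lie apart, which is easier to meet. These counts are therefore not like for like with those on all arrays.

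The middle of the distribution lay near 0. The median difference over all genes was -0.0097 (0.079 with median scaling), the lowest 1% of genes were at -1.54 or below and the highest 1% at 1.08 or above. Large differences were mostly in dim genes: among the 5261 dimmest genes 111 were higher and 306 lower by 2-fold without overlap, whereas among the 5261 brightest 15 were higher and 24 lower. Within the shared slides, 220 genes were at least 2-fold higher and 281 at least 2-fold lower in both pairs of arrays.

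**Figure D2:**
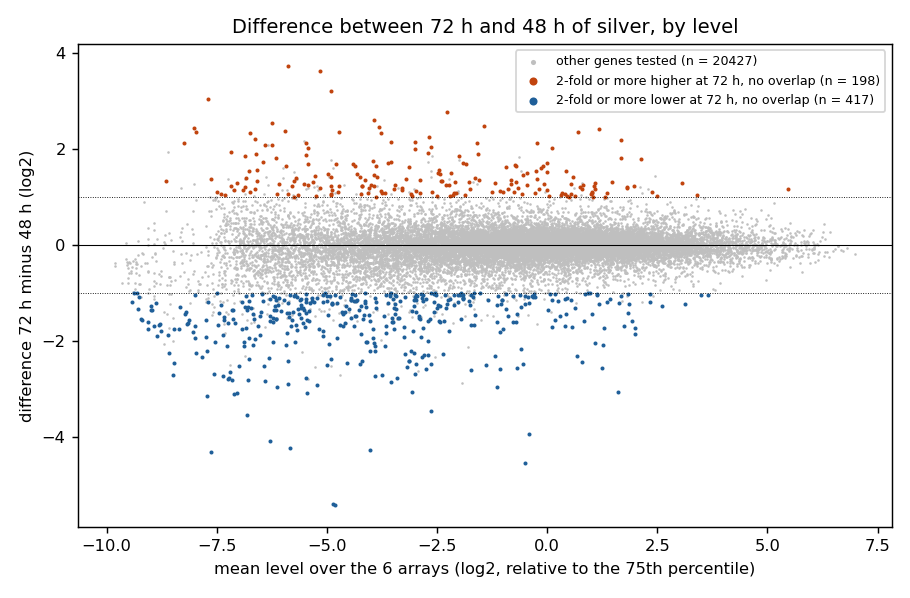
Difference 72 h minus 48 h (log2, vertical) against the mean level over the 6 arrays (log2 relative to the 75th percentile, horizontal), 1 point a gene. Genes 2-fold apart without overlap are coloured, 198 higher and 417 lower at 72 h, and the cloud is widest among dim genes.

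Among measured genes without overlap, the lowest differences were those of unnamed loci and a cytochrome P450. AT1G14960, which has no symbol in the annotation used, stood at -2.60, -1.84 and -3.85 on the 72 h arrays, against 2.05, 1.42 and 1.84 on the 48 h arrays. All 72 h values were far below all 48 h values. The difference was -4.53 ± 0.46 (standard error), or 23.1-fold, with an adjusted p of 0.0593. It passed the threshold with median scaling (adjusted p = 0.0377), quantile normalization (0.0448) and normexp background correction (0.0201), and without 72 h replicate 2 (0.0242) or replicate 3 (0.0472). With a trended, robust variance it lay just under the threshold. It did not pass with the authors' value table (0.0577), in the fit of 6 arrays (0.0870), with slide as a block (0.0978), or without 72 h replicate 1 (0.138) or any 48 h array (0.0891 to 0.194). Nor did it pass with the replicate number as a block (0.0580, and 0.124 on 6 arrays) or without slides 3 and 4 (0.244). The same held with no filter on dim probes (0.125), with probes above background on all 6 arrays (0.0866) and with the mean of probes (0.0591). AT4G33720, also without a symbol, was at -2.34, -1.58 and -3.24 at 72 h, against 1.096, 1.038 and 2.522 at 48 h (15.3-fold lower, adjusted p = 0.122).

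CYP712A1 (AT2G42250), a cytochrome P450 gene, was at -6.88, -4.99 and -6.58 at 72 h, against -0.66, -2.48 and -2.51 at 48 h. The groups were more than 2 log2 units apart at their nearest values, and the mean difference was -4.27 ± 0.64 (adjusted p = 0.122). Its relative CYP712A2 (AT5G06905) was well above background on all 3 arrays at 48 h and on none at 72 h, and was at least 4.75-fold lower (adjusted p = 0.129). In the same way RALFL27 (AT3G29780), a gene for a RALF-like signalling peptide, was at least 6.43-fold lower (adjusted p = 0.142). WRKY67 (AT1G66550), a transcription factor gene, was at -6.37, -6.42 and -5.96 at 72 h, against -3.74, -3.94 and -3.60 at 48 h. Its replicates were tight and the difference was -2.49 ± 0.39 (5.62-fold, adjusted p = 0.122). At 0 h it was well above background on no array, and against 0 h it had risen at least 2.17-fold at 72 h and at least 12.2-fold at 48 h.

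**Figure D3:**
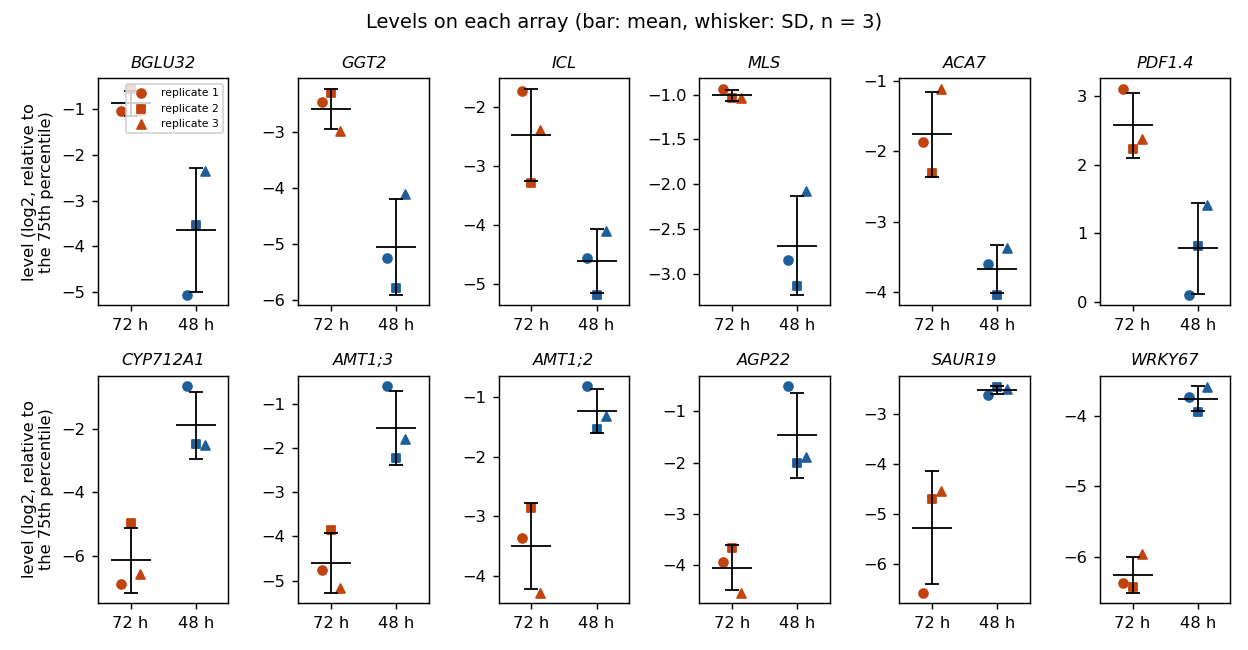
Levels of 12 genes on each array at 72 h (left in each panel) and 48 h (right), in log2 relative to the 75th percentile of the array, with a separate vertical scale for each gene. Points are arrays, bars are means and whiskers are SD of 3 arrays. The 6 genes of the upper row were higher at 72 h on every array and the 6 of the lower row were lower.

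Many SAUR genes were lower at 72 h than at 48 h. SAUR proteins of the SAUR19 group inhibit phosphatases that would switch off the proton pump, and so favour cell expansion. Of 79 genes that carry a SAUR name as symbol or synonym, a list formed after the values were seen, 63 were tested. Of these, 31 were lower without overlap, 1 was higher and 31 overlapped, and 25 of the 31 were at least 2-fold lower. The median difference was -0.52, against -0.0097 over all genes. By pairs of arrays the median was -1.23, -0.40 and -0.55 for replicates 1, 2 and 3, so replicate 1 gave the largest value. Leaving out single arrays kept the median between -0.62 and -0.37.

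SAUR19 (AT5G18010) was at -6.57, -4.70 and -4.55 at 72 h, against -2.62, -2.48 and -2.51 at 48 h. The 48 h arrays lay close together and the 72 h arrays were lower and more spread, replicate 1 lowest. The difference was -2.74 ± 0.47 (6.66-fold, adjusted p = 0.131), and without 72 h replicate 1 it was -2.09 with an adjusted p of 0.0451. At 0 h SAUR19 stood at -4.99, -5.54 and -5.27, and its mean at 72 h differed from 0 h by -0.0056 (adjusted p = 0.994). SAUR15 (AT4G38850), an auxin-induced gene named after its values were seen, was at -5.65, -5.55 and -5.41 at 72 h, against -3.94, -3.94 and -3.76 at 48 h. The differences by pairs of arrays were close, -1.71, -1.61 and -1.65, whereas the fit over 9 arrays gave an adjusted p of 0.314. The limma fit of the 72 h and 48 h arrays alone gave 0.0347. SAUR28 (AT3G03830) was well above background at 48 h only and was at least 4.26-fold lower. Over the 63 genes, 13 had risen and 17 had fallen at 72 h relative to 0 h by the same fit, and 27 had risen and 10 had fallen at 48 h. With the replicate number as a block, 31 had risen and 11 had fallen at 48 h. Both comparisons share the 0 h arrays.

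Several SAUR genes are neighbours in the genome, and members of the SAUR19 group are close copies of each other. SAUR19 and SAUR20 lie next to AT5G18030, another SAUR gene, and SAUR29, SAUR28 and SAUR26 form another row of tested genes. In the gene order of the annotation, 7 rows of 3 or 4 consecutive tested genes were all at least 2-fold apart in the same direction without overlap, and 4 of these rows hold SAUR genes. Probe sequences were not used here, so signals of near-identical copies may share RNA and do not count as separate evidence. Other auxin genes were mixed. Among 23 Aux/IAA genes, which encode auxin response repressors, 3 were lower without overlap and 1 higher, with a median of -0.054. IAA6 (AT1G52830) was at -7.12, -4.68 and -5.53 at 72 h, against -3.73, -3.09 and -3.12 at 48 h, a difference of -2.46 ± 0.62 (adjusted p = 0.238).

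**Figure D4:**
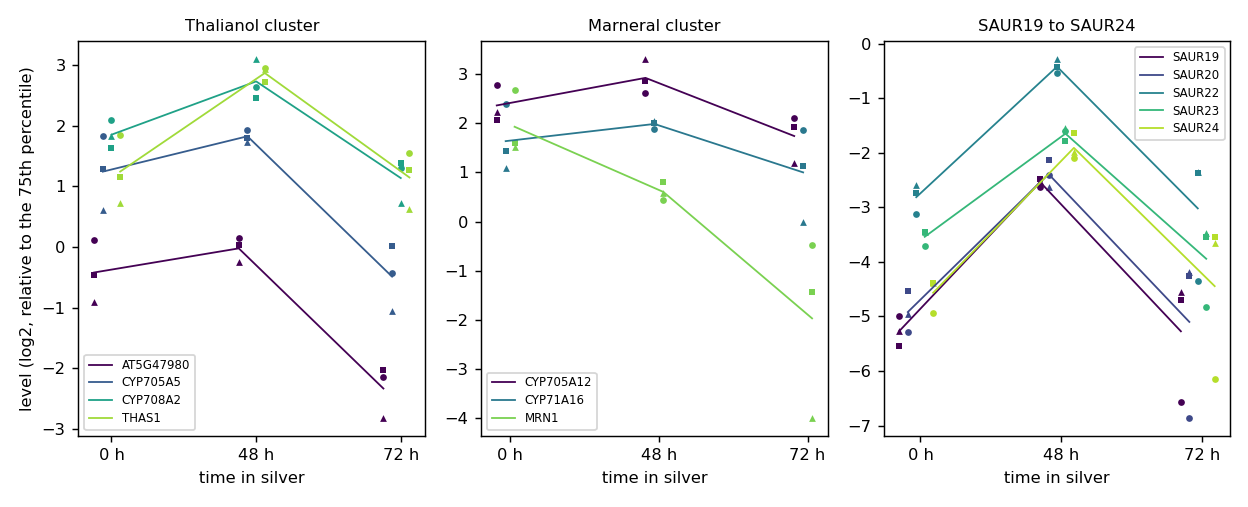
Levels over the 3 times (0, 48 and 72 h of silver) of genes in 3 groups of neighbours: the thalianol cluster, the marneral cluster and 5 genes from SAUR19 to SAUR24. Points are arrays (log2 relative to the 75th percentile, a separate scale per panel) and lines join the means of 3 arrays. From 48 h to 72 h the line of every gene shown goes down.

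Genes of the growing cell wall were lower at 72 h in several families. Of 18 alpha-expansin genes, whose proteins loosen walls, 8 were lower without overlap and 2 higher. Their median was -0.66 and dropped in size to -0.40 without 72 h replicate 1. EXPA8 (AT2G40610) was at -4.99, -4.83 and -3.91 at 72 h, against -2.43, -3.28 and -2.53 at 48 h. The difference was -1.83 ± 0.38 (3.54-fold, adjusted p = 0.171). EXPA2 (AT5G05290) was well above background on no 72 h array and on 2 of 3 at 48 h, so no fold is given (adjusted p = 0.0954). EXPA15 (AT2G03090) was at -2.49, -0.62 and -1.11, against 0.34, -0.30 and 0.019 at 48 h, with replicate 1 lowest at 72 h. Its difference was -1.43, and -0.89 without that array.

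Of 27 XTH genes, which cut and rejoin xyloglucan, 12 were lower and 3 higher without overlap (median -0.37). XTH21 (AT2G18800) was at -4.23, -3.13 and -5.07 at 72 h, against -1.29, -1.99 and -2.40 at 48 h, a difference of -2.25 ± 0.53 (4.76-fold, adjusted p = 0.205). XTH31 (AT3G44990) was at -1.18, 1.06 and 1.05, against 1.97, 1.54 and 1.73 at 48 h, where again 72 h replicate 1 was lowest. The difference of -1.43 became -0.69 without it. Among the family members that were higher, none reached 2-fold. Of 42 genes for arabinogalactan proteins, fasciclin-like ones included, 17 were lower and 2 higher (median -0.50).

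AGP22 (AT5G53250), an arabinogalactan peptide gene, was at -3.94, -3.67 and -4.54 at 72 h, against -0.51, -2.00 and -1.89 at 48 h. Its difference of -2.58 ± 0.43 (5.99-fold, adjusted p = 0.129) continued a course that had brought it down by 2.53 between 0 h and 48 h, a change that passed the test. In families looked at after the values were seen, 7 of 15 tubulin genes, 6 of 13 genes of glycoside hydrolase family 9, which holds the wall-modifying cellulases, and 9 of the 15 fasciclin-like genes were lower without overlap and none was higher. TUB1 (AT1G75780) was 2.21-fold lower and GH9B13 (AT4G02290) 2.36-fold lower, with adjusted p of 0.322 and 0.597. The GH9B13 difference of -1.24 rested largely on 72 h replicate 1 and was -0.50 without it.

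Epidermal genes were lower as well. Of 15 genes for stomata and epidermis, 8 were lower without overlap and none was higher (median -0.44, and -0.50, -0.62 and -0.18 in the 3 pairs of arrays). The 5 that were 2-fold lower, BASL, SPCH, EPF2, EPF1 and TMM, act in the stomatal lineage. SPCH (AT5G53210), the factor that starts the lineage, was at -8.92, -6.94 and -6.41 at 72 h, against -5.42, -6.07 and -6.17 at 48 h, and well above background on 2 of 3 arrays at 72 h. BASL (AT5G60880), which polarises the dividing cells, was at -8.77, -6.97 and -7.34, against -5.49, -6.34 and -6.08 at 48 h, also above background on 2 of 3 arrays at 72 h. EPF2 (AT1G34245), a peptide that restrains the lineage, was at -6.34, -6.09 and -6.25, against -4.67, -5.51 and -4.72. The groups did not overlap for these genes, but 72 h replicate 1 was the lowest array in each of them and the adjusted p values were 0.509 to 0.663. Without that array the SPCH difference was -0.79, against -1.54 with it.

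The summed linear level of the 15 epidermal genes was 5.66 to 6.56 times the 75th percentile at 72 h and 7.11 to 8.82 times at 48 h. Such a sum is carried by the brightest probes of a list. Dim stomatal lineage genes such as BASL and SPCH, with log2 means of -5.97 and -5.89 at 48 h, add little to it. In a whole-seedling sample, fewer cells of a type and less RNA per cell cannot be told apart. Of 6 cuticle and wax genes tested, 4 were lower without overlap (median -0.68). CER1 (AT1G02205), needed for wax alkanes, was at -3.91, -3.23 and -3.48 at 72 h, against -2.20, -2.26 and -2.90 at 48 h (2.12-fold lower, adjusted p = 0.499). Of 17 KCS genes, which elongate very long chain fatty acids, 7 were lower and none higher.

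Most root hair genes were already low at 48 h: against 0 h, 15 of 18 had fallen at 72 h and 13 at 48 h. With the replicate number as a block, 15 had fallen at 48 h. Between 72 h and 48 h, 5 were lower without overlap and none higher. Only 7 of the 18 were well above background on all 6 arrays, and the count of 5 holds XTH26, which was above background on none of them, so no median is given. Probes of RHS18, PRP3, PRP1, RHS12 and XTH26, markers of the list, were well above background on no 72 h array. The summed level of all 18 root hair genes, again carried by the brightest probes, was 0.905 to 1.02 at 72 h and 0.966 to 1.01 at 48 h. RSL4 (AT1G27740), the factor that drives hair growth, was at -7.44, -7.48 and -6.89 at 72 h, against -5.32, -5.83 and -6.21 at 48 h, a difference of -1.48 ± 0.31 (adjusted p = 0.171). Markers of other root tissues did not shift together: 2 of 13 were higher and 2 lower without overlap, the median was -0.024 and the summed level was 7.59 to 8.67 at 72 h and 6.88 to 9.30 at 48 h.

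Clustered triterpene genes of the root were lower on every 72 h array. The thalianol cluster holds THAS1 (AT5G48010), which cyclises the triterpene thalianol, CYP708A2 (AT5G48000) and CYP705A5 (AT5G47990), which oxidise it, and the neighbouring AT5G47980. This cluster was looked at after its values were seen. All 4 genes were lower without overlap and all at least 2-fold lower. CYP705A5 was at -0.43, 0.017 and -1.05 at 72 h, against 1.933, 1.802 and 1.733 at 48 h, a difference of -2.31 ± 0.34 (4.97-fold, adjusted p = 0.122). THAS1 was at 1.54, 1.27 and 0.62, against 2.95, 2.71 and 2.94 (3.29-fold, adjusted p = 0.142). AT5G47980 was at -2.15, -2.03 and -2.82, against 0.14, 0.029 and -0.24 (4.95-fold, adjusted p = 0.122). The median of the cluster was -1.85, -1.61 and -2.47 in the 3 pairs of arrays, so both pairs that shared a slide showed it.

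The marneral cluster, another group of triterpene genes, was also chosen after its values were seen. Among its genes are MRN1 and CYP71A16, which make and oxidise marneral. Its 3 genes were lower without overlap. MRN1 (AT5G42600), the marneral synthase gene, was at -0.48, -1.43 and -3.99 at 72 h, against 0.44, 0.80 and 0.57 at 48 h. The 48 h values were close together, whereas 72 h replicate 3 was far below the other 72 h arrays. The difference was -2.57 ± 0.77 (5.94-fold, adjusted p = 0.312), and -1.56 without that array. CYP705A12 (AT5G42580) was 2.27-fold lower and CYP71A16 (AT5G42590) 1.98-fold lower, a difference of -0.98 that was -0.48 without 72 h replicate 3. Relative to 0 h, THAS1 differed by -0.097 at 72 h (adjusted p = 0.835) and had risen by 1.62 at 48 h, whereas MRN1 had fallen by 3.89 at 72 h and had a difference of -1.32 at 48 h (adjusted p = 0.238).

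Transporters for nitrogen and phosphate were among the lowest genes at 72 h. AMT1;3 (AT3G24300), a root ammonium transporter gene, was at -4.76, -3.85 and -5.17 at 72 h, against -0.61, -2.22 and -1.80 at 48 h. The difference was -3.05 ± 0.47 (8.30-fold, adjusted p = 0.122). AMT1;2 (AT1G64780), which takes up ammonium from the root apoplast, was at -3.36, -2.85 and -4.27, against -0.83, -1.54 and -1.33 (4.79-fold, adjusted p = 0.140). Of the 5 ammonium transporter genes, a group formed after the values were seen, 4 were lower and 1 higher without overlap. Neither AMT1;3 nor AMT1;2 had passed the test at 48 h against 0 h, with differences of -0.37 and -0.45, and both passed it at 72 h, having fallen by 3.43 and 2.71.

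NRT2:1 (AT1G08090), the main high-affinity nitrate transporter gene of roots, was at -9.70, -3.99 and -8.89 at 72 h, against -1.89, -1.94 and -2.53 at 48 h. At 72 h only replicate 2 was well above background, and it stood far above the other 72 h arrays. The fitted difference was -5.41 ± 1.28 (adjusted p = 0.206), with its 72 h mean resting on 1 measured array of 3. Without 72 h replicate 2 the adjusted p was 0.0155, but both 72 h arrays then left are not well above background, so no size is given. NRT2.6 (AT3G45060), a relative named after its values were seen, went the other way: -4.05, -4.08 and -1.91 at 72 h, against -6.76, -6.89 and -7.26 at 48 h, where it was above background on 2 of 3 arrays. The fitted difference was 3.62 ± 0.67 (adjusted p = 0.144). In a list of 19 tested genes of nitrogen uptake and assimilation, which does not hold NRT2.6 or the ammonium transporters described above, NRT2:1 alone had no overlap, and the median was -0.047.

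PHT1;1 (AT5G43350), a phosphate uptake transporter gene, was at 0.67, 0.85 and -0.85 at 72 h, against 2.90, 2.13 and 1.93 at 48 h (4.27-fold lower, adjusted p = 0.232). Phosphate starvation genes were lower in 5 of 16 cases and higher in 1 (median -0.45, and -0.18 without 72 h replicate 1). Among metal genes, ZIP2 (AT5G59520), a metal transporter gene, was at -2.22, -1.39 and -2.31, against -0.24, -0.36 and 0.11, a difference of -1.81 ± 0.29 (3.51-fold, adjusted p = 0.129). NAS2 (AT5G56080), which makes the metal chelator nicotianamine, was at -5.11, -4.23 and -5.56, against -2.06, -3.03 and -3.51 (4.29-fold lower, adjusted p = 0.163). Of the 4 nicotianamine synthase genes, a group formed after the values were seen, 3 were lower without overlap (median -0.77). In the wider metal lists, 2 of 17 copper genes were lower and 1 higher without overlap (median 0.017), and none of 11 metal chelation genes was without overlap. Among 17 iron deficiency genes, 2 were lower without overlap and 14 had a lower mean. The iron median was -0.37, and -0.56 without 72 h replicate 3 and -0.20 without 72 h replicate 1. In pairs of arrays it was -0.55, -0.72 and 0.29 for replicates 1, 2 and 3, so replicate 3 went the other way. The aquaporin gene TIP4;1 (AT2G25810) was 2.37-fold lower (adjusted p = 0.171), among 7 of 35 aquaporin genes lower and 1 higher.

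The flavonoid pathway, which makes flavonols and anthocyanin pigments, had a median of -1.04 over 19 genes. Only 5 of them were lower without overlap, 1 was higher and 13 overlapped, and the median was -0.63 without 72 h replicate 1. TT4 (AT5G13930), chalcone synthase and the entry to the pathway, was at -2.10, 0.35 and -0.50 at 72 h, against 0.44, 1.32 and 1.15 at 48 h. The highest 72 h value, of replicate 2, was close to the lowest 48 h value, and the difference of -1.72 ± 0.59 had an adjusted p of 0.400. Without 72 h replicate 1 it was -1.04. MYB111 (AT5G49330), a regulator of flavonol synthesis, was 2.92-fold lower, and AT5MAT (AT3G29590), which decorates anthocyanins, 2.87-fold lower (-1.52, and -0.99 without 72 h replicate 1). Enzymes of the upstream phenylpropanoid route were not lower in the same way: of 16 genes, 2 were higher and 1 lower without overlap (median 0.27, and 0.16 without 48 h replicate 1).

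Xylem and secondary wall genes differed by small amounts in the same direction. Of 17 genes, 10 were lower without overlap and 1 higher, none by 2-fold, with a median of -0.21. MYB83 (AT3G08500) and NAC101 (AT5G62380), regulators of vessel walls, were 1.51-fold and 1.47-fold lower, whereas MYB63 (AT1G79180), a lignin regulator, was 1.61-fold higher. The summed level of the list was 19.0 to 19.1 at 72 h and 19.3 to 22.6 at 48 h.

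Heat shock genes had a median of -0.68 over 20 genes, yet the values at 72 h and 48 h overlapped for every one of them. The median was -0.35 without 48 h replicate 3, -0.41 without 72 h replicate 1 and -1.09 without 48 h replicate 1. Abscisic acid and dehydration genes were lower without overlap in 6 of 23 cases (median -0.49, and -0.27 without 48 h replicate 2), led by RD22 (AT5G25610, 2.02-fold, adjusted p = 0.171). Among 7 tested genes of seed storage, SESA5 (AT5G54740), a seed albumin gene, was at -6.21, -4.08 and -2.84 at 72 h, against -0.67, -0.075 and -1.99 at 48 h. It spread widely at both times, with a difference of -3.46 ± 0.86 (11.0-fold, adjusted p = 0.227), and it had risen against 0 h, where no array was above background, at least 7.99-fold at 72 h and at least 88.0-fold at 48 h.

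Genes that were higher at 72 h included single members of several families and the key enzymes of the glyoxylate cycle. The groups of genes that share a name with these members did not rise as a whole. Of 13 genes with a PDF symbol, not all of which are defensin genes, 1 was higher and 3 lower without overlap (median -0.44, and -0.017 without 48 h replicate 3). Of 40 serine carboxypeptidase-like (scpl) genes, a list formed after the values were seen, 5 were higher and 14 lower (median -0.30). Of 30 beta-glucosidase genes, 6 were higher and 3 lower. BGLU32 (AT5G24550), a beta-glucosidase gene, was at -1.05, -0.56 and -1.03 at 72 h, against -5.06, -3.52 and -2.36 at 48 h. The 72 h arrays were tight and the 48 h arrays spread, and the difference was 2.77 ± 0.58 (6.82-fold, adjusted p = 0.171). GGT2 (AT4G39650), which degrades glutathione outside the cell, was at -2.47, -2.32 and -3.00, against -5.24, -5.79 and -4.11 (5.48-fold, adjusted p = 0.131). ACA7 (AT1G08080), an alpha carbonic anhydrase gene, was at -1.87, -2.31 and -1.12, against -3.60, -4.04 and -3.37 (3.75-fold, adjusted p = 0.129). Against 0 h, where no array was above background, it had risen at least 48.8-fold at 72 h and at least 13.01-fold at 48 h.

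PDF1.4 (AT1G19610), a defensin gene, was at 3.11, 2.24 and 2.38 at 72 h, against 0.10, 0.81 and 1.42 at 48 h (3.48-fold, adjusted p = 0.156). DIR5 (AT1G64160), a dirigent protein gene, was at 4.218, 1.495 and 1.457, against -0.81, -0.083 and 0.83, where 72 h replicate 1 was far above the others. The difference was 2.41, and 1.496 without that array. The lipase gene GLIP1 (AT5G40990) was at 2.505, 1.283 and 1.804, against -0.81, -1.30 and 0.69 (5.06-fold, adjusted p = 0.477). Others in the same range were scpl30 (4.51-fold, a difference of 2.17 that was 1.31 without 72 h replicate 1), BON3 (4.39-fold), which encodes a calcium-binding copine, MIOX4 (4.32-fold), a myo-inositol oxygenase gene, CYP71B22 (3.70-fold) and the receptor-like protein gene RLP15 (3.67-fold). AT4G23590, without a symbol, was at 1.25, 0.69 and 0.52, against -1.31, -1.58 and -0.98, with a difference of 2.11 ± 0.26 (adjusted p = 0.122).

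The key enzymes of the glyoxylate cycle, which lets cells build sugar from fatty acids, were both higher. ICL (AT3G21720), isocitrate lyase, was at -1.74, -3.29 and -2.40 at 72 h, against -4.56, -5.18 and -4.11 at 48 h (4.41-fold, adjusted p = 0.171). MLS (AT5G03860), malate synthase, was at -0.94, -1.04 and -1.04, against -2.85, -3.14 and -2.07 (3.20-fold, adjusted p = 0.122). The MLS values were tight at 72 h, and neither gene overlapped between the times. Without 48 h replicate 3 the difference for MLS was 1.99 with an adjusted p of 0.0384. Of 12 genes of fatty acid oxidation and this cycle, a list formed after the values were seen, 5 were higher without overlap and none lower, but the other 3 of these were under 2-fold and the median was 0.18 (0.097 without 48 h replicate 1).

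Genes linked to low sugar and to ageing leaves gave a similar mix. Of 17 genes of sugar transport and carbon status, 5 were higher without overlap and 1 lower, with a median of 0.16 (-0.012 without 48 h replicate 1). ASN1 (AT3G47340), an asparagine synthetase gene induced in darkness, was at 3.61, 2.04 and 2.09 at 72 h, against 1.66, 0.92 and 1.49 at 48 h (2.33-fold, adjusted p = 0.448). Its difference of 1.22 was 0.71 without 72 h replicate 1. Of 20 genes of chlorophyll breakdown and senescence, 3 were higher without overlap and none lower, where 8.07% and 9.51% of all genes were, with a median of 0.25 and of 0.16 without 72 h replicate 1. The largest difference in this list was a fall of -2.12, in a gene whose values overlapped. The medians by pairs of arrays were 0.67, -0.048 and 0.17 for replicates 1, 2 and 3. DIN11 (AT3G49620), a dark-inducible oxygenase gene, was at 5.48, 5.14 and 5.07, against 4.38, 4.43 and 4.68, a difference of 0.73 ± 0.16 (adjusted p = 0.187). NAP (AT1G69490), a NAC factor of leaf senescence, was 1.98-fold higher, with replicate 1 highest. Its difference was 0.99, and 0.48 without that array.

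Genes for camalexin, an indole antimicrobial, had the highest median of the lists, 0.56 over 13 genes, which was 0.93 without 48 h replicate 3. Of these, 3 were higher without overlap and none lower. CYP71A13 (AT2G30770), an enzyme of the pathway, was at 1.241, 0.543 and 1.798 at 72 h, against -0.78, -0.74 and 0.53 at 48 h (2.88-fold, adjusted p = 0.451). NAC042 (AT2G43000), a factor that induces the pathway, was at 2.86, 2.05 and 2.35, against 1.02, 0.68 and 1.93 (2.31-fold, adjusted p = 0.381). For both genes the 48 h replicate 3 array came close to the lowest 72 h array. Of 62 WRKY factor genes, 10 were higher and 3 lower without overlap, led among the higher ones by WRKY66 (AT1G80590, 2.78-fold, adjusted p = 0.290). Its difference was 1.47, and 0.92 without 48 h replicate 1.

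Genes well above background at only 1 of these times gave lower bounds. Probes of 22 genes were well above background on all 72 h arrays and on no 48 h array without overlap, and probes of 19 genes on all 48 h arrays and on no 72 h array. HSD1 (AT5G50600), a hydroxysteroid dehydrogenase gene, was at least 3.39-fold higher, although its level of -3.39 on 72 h replicate 1 was far above -6.72 and -6.46 on the other 72 h arrays (adjusted p = 0.423). TPPC (AT1G22210), a trehalose phosphate phosphatase gene, was at -5.92, -7.11 and -5.49 at 72 h, against -9.28, -9.64 and -8.68 at 48 h, and was at least 2.16-fold higher (adjusted p = 0.122). AT5G56075 had the smallest adjusted p of all genes, 0.0514, and was at -7.01, -7.09 and -7.44 at 72 h, against -9.27, -9.47 and -9.17 at 48 h. Since all of these levels were near the background, it was at least 1.08-fold higher.

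Several groups had few genes without overlap. Of 20 ethylene genes, 1 was higher and 1 lower without overlap (median 0.056), EIN4 (AT3G04580), a receptor gene, by 0.29 and the chitinase gene HCHIB (AT3G12500) by -0.46. None of 16 xenobiotic and mitochondrial stress genes was without overlap (median 0.0032), nor any of 15 clock genes (median 0.057) or of 18 jasmonate genes (median -0.15, and -0.47 to 0.046 when single arrays were left out). The xenobiotic median ran from -0.25 without 48 h replicate 1 to 0.24 without 72 h replicate 1. Of 34 light harvesting and photosystem genes, 2 were lower without overlap, LHCA1 (AT3G54890) by 1.39-fold and LHCB3 (AT5G54270) by 1.38-fold. Means were lower at 72 h for 31 of the 34 (median -0.26, and -0.14 without 72 h replicate 3). The pairs of arrays did not all go the same way, with medians of 0.16, -0.35 and -0.48 for replicates 1, 2 and 3. The summed level was 750 to 1073 at 72 h and 971 to 1090 at 48 h. The 11 reference genes all overlapped, with a median of -0.024.

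A scan took all 219 groups of at least 8 tested genes that share the letters before the number in their symbol. The median difference was -0.50 or lower in 8 groups and 0.50 or higher in none. After SAUR (14 genes with that symbol, median -2.48, and -1.64 without 72 h replicate 1), the lowest medians were those of the MLP group of major latex proteins (-0.76 over 10 genes, and -0.49 without 72 h replicate 1) and of EXPA (-0.66). The highest was 0.39, for the RGF root growth peptide genes, of which 2 of 8 were higher without overlap and 1 lower.

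**Figure D5:**
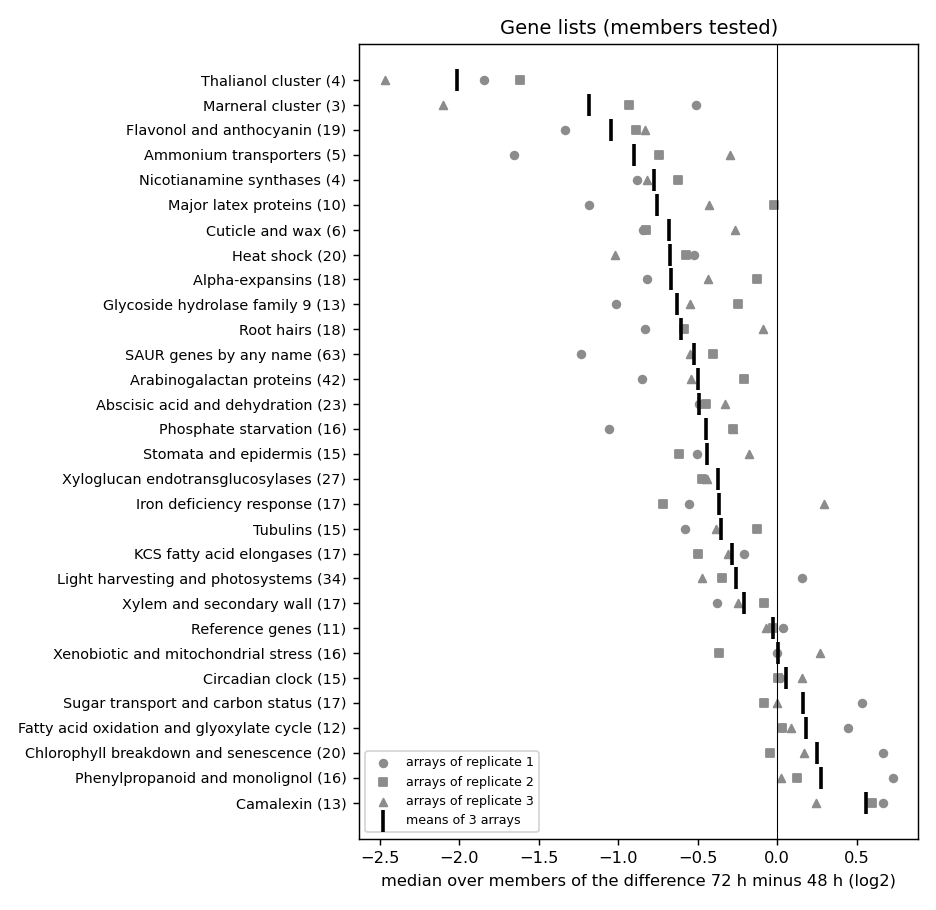
Median over the members of 30 gene lists of the difference 72 h minus 48 h (log2, horizontal). Black bars use the means of 3 arrays and grey symbols the arrays of replicates 1, 2 and 3 (circle, square and triangle), with the number of genes tested in brackets. The thalianol cluster is lowest at -2.01 and camalexin highest at 0.56, and the grey symbols of many lists spread as widely as their distance from 0.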

How the data were processed

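Scanner files of 9 single-colour arrays (3 each at 0, 48 and 72 h) were used. Per the file headers and the submitters' processing notes they come from Agilent Feature Extraction 9.5.3.1, and the deposited processed signal is an intensity from which the scanner software had taken the background, with no scaling between arrays. Flags deposited by the authors mark outlier, saturated and well-above-background spots. The authors' value table holds a ratio on a linear scale whose reference level per probe is not given in the sources used here, and served as an alternative. Of 39102 spots, 37685 were not controls, none was saturated and 80 values marked as outliers were left out. Values were log2 of the signal minus the 75th percentile of each array. Probes had to be well above background throughout the 3 arrays of some time, and the brightest kept probe stood for its locus. Symbols came from a table of RefSeq genes (TAIR10.1), in which 26019 of 26236 probes with a locus matched, and 9232 of the 21042 genes tested had a symbol.

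The test was limma 3.58.1 (R 4.3.3), with 1 mean per time over 9 arrays, 6 residual and 2.54 prior degrees of freedom, two-sided p-values and Benjamini-Hochberg adjustment over 21042 genes. Standard errors are those of limma and n is 3 arrays per time, and 19 genes lacked a value on some array. Lower bounds compare the mean of the time with signal with, on each other array, the higher of the gene's own level and the lowest signal well above background. The code was tested on simulated data. Genes were named by a rule: the largest differences without overlap each way, the largest bounds, up to 3 members of each list and the 5 smallest p. Members, lists and this rule were chosen with earlier results of these data known. Deviations of 72 h and 48 h arrays with the same number correlated at 0.098, 0.112 and -0.039, so the numbers were not taken as pairs. Those of 48 h and 0 h arrays correlated at 0.255, 0.317 and 0.401, so calls of 48 h against 0 h were repeated with the replicate number as a block. Alternatives were other scalings, background correction, filters, blocks, variance models and leaving out arrays. Leaving out slides 3 and 4 was chosen after seeing the data.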

Additional observations from a re-analysis of the deposited data

How the results depend on the processing

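The fit with 1 mean per time called 0 genes, and 1931 passed an unadjusted p of 0.05. The count was 2 with median scaling, 3 with quantile normalization, 1 with normexp, 1 with the authors' value table, and 1 with a trended, robust variance. On the 6 arrays of 72 h and 48 h alone it was 3 (WRKY67, SAUR15 and AT5G56075). With the replicate number as a block it was 6 (ACA7, TPPC, AT3G20340, AT5G17820, AT5G39640 and AT5G47980), and with the block on 6 arrays 0. Leaving out single arrays gave 0 to 7 calls. Genes at least 2-fold higher without overlap numbered 100 with normexp, 374 without slides 3 and 4, and 196 to 339 when single arrays were left out. Lower ones numbered 222 with normexp, 730 with no filter on dim probes, and 409 to 654 when single arrays were left out. Counts with arrays left out ask fewer values to lie apart, so they are not like for like with the others. The XTH median was -0.28 with median scaling and with the authors' table, -0.29 with quantile normalization, -0.30 with normexp, -0.41 with no filter and -0.45 with slide as a block. The camalexin median was 0.89 without slides 3 and 4. Leaving out single arrays, the medians ran from -0.53 to -0.28 for XTH, 0.38 to 0.93 for camalexin, -1.09 to -0.35 for heat shock and -1.36 to -0.63 for flavonoid genes. No named gene changed sign under the alternatives run, but lists with medians near 0, such as sugar transport and jasmonate, did. The cause of these differences was not tested. Among values of named genes under alternatives, 21 newly passed the threshold and 3608 stayed on the same side of it. Slide 4 held 72 h replicate 3 alone, so that array has no within-slide comparison. The SD of the difference was 0.660 among the dimmest genes and 0.272 among the brightest. For 48 h against 0 h, whose numbers were taken as pairs, the block called 6749 genes, 6009 of them shared with the 6308 called without it, and it changed no call of 48 h against 0 h on a gene named in the text.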

Other observations

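Probes without a gene locus were left out of the comparison above. Of 3225 such probes tested in the same way, limma called 0 at an adjusted p of 0.05, and 172 had an unadjusted p under 0.05. The smallest adjusted p was 0.163. Without overlap and at least 2-fold apart, 15 were higher and 35 lower at 72 h.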
